A study of Mus musculus with 36 samples.

Results

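A set of 8 mature microRNAs (miRNAs) best known from neurons was followed through mouse kidneys with and without deletion of a polycystic kidney disease gene. They were mmu-miR-9-5p, mmu-miR-9-3p, mmu-miR-124-3p, mmu-miR-129-5p, mmu-miR-129-1-3p, mmu-miR-129-2-3p, mmu-miR-137-3p and mmu-miR-218-5p, 8 of the 1915 mature miRNAs in the count table, and are written without the prefix for mouse from here on. Each was found by its mature name, and where a name was listed under several precursor hairpins the row with the most reads was taken. Kidneys came from C57BL/6 mice aged 1, 3 or 7 days after birth (P1, P3, P7). In the Pkd1 model, Pkd1f/f mice (called WT) were compared with Pkd1f/f:HoxB7-Cre mice (called KO), and in the Pkd2 model Pkd2f/f mice (WT) with Pkd2f/f:HoxB7-Cre mice (KO). All 36 libraries, 3 in each of 12 groups, therefore carry a floxed allele, WT included. HoxB7-Cre acts in the ureteric bud lineage, which forms the collecting duct, whereas the RNA was total RNA of whole kidney, so recombined cells are only a share of what was measured. In such bulk RNA, fewer cells of a type and less of a miRNA per cell cannot be told apart. The labels do not say that the 3 libraries of a group came from separate animals, and p-values measure only the spread between them.

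A miRNA is cut from a hairpin precursor, and the 5p and 3p names tell from which arm of the hairpin a mature strand comes. Bases 2 to 8 of the mature strand, the seed, pair with messenger RNAs, which lowers their translation and stability. miR-9 and miR-124 are classical miRNAs of neural progenitors and neurons, miR-124 and miR-137 promote neuronal differentiation, miR-129 and miR-218 are abundant in brain and motor neurons respectively, and miR-218 is encoded inside the Slit genes, which guide axons and also take part in the branching of the ureteric bud.

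RefSeq (GRCm38.p6) gave the mature sequence of 6 of the 8 miRNAs. They are shown 5′ to 3′ with the seed in capitals, because members with the same seed could pair with the same sites.

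miR-9-5p: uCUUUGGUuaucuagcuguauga
miR-9-3p: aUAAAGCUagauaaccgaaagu
miR-129-5p: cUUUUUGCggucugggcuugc
miR-129-2-3p: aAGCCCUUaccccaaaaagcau
miR-137-3p: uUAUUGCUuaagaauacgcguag
miR-218-5p: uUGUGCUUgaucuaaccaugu

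No 2 of these 6 seeds were the same. Among the 1679 mature names of that reference only the seed of miR-218-5p was shared with another name, miR-7002-3p. The strands are 21 to 23 bases long, so their read counts need no correction for length. Whether different strands were captured equally well was not tested. miR-124-3p and miR-129-1-3p were the other members.

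The hairpins of these sequences lie mostly inside long noncoding RNAs. In GRCm38 coordinates, Mir9-1 (chr3:88215598-88215686) is in an intron of Gm3764, Mir9-2 (chr13:83738814-83738885) in an exon of C130071C03Rik and Mir9-3 (chr7:79505264-79505353) in an intron of Mir9-3hg, all on the plus strand. Mir129-1 (chr6:29022619-29022691, plus strand) overlaps an exon of Gm3294, Mir129-2 (chr2:94241364-94241453, minus strand) an intron of Mir670hg and Mir137 (chr3:118433857-118433929, plus strand) an exon of Gm26871. Both miR-218 hairpins are in introns of protein-coding genes, Mir218-1 (chr5:48223942-48224051) in Slit2 and Mir218-2 (chr11:35616816-35616925) in Slit3. Of the 8 miRNAs, 5 were listed under several hairpins with nearly the same totals, so their reads cannot be assigned to one locus. Only miR-129-1-3p, miR-129-2-3p and miR-137-3p belong to a single hairpin.

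Libraries held between 12569939 and 32663566 miRNA reads, with a median of 24008082, and no sequencing batch was labelled. Levels are given as normalised CPM (reads scaled to a common library size), scaled by the trimmed mean of M values (TMM). miR-10a-5p and miR-10b-5p, which are typical of kidney, together took 31.4% to 81.0% of the reads of a library, and miR-192-5p and miR-200b-3p, of tubular epithelium, measured at least 3410 and 1156 CPM in every library. The library with the fewest reads, replicate 2 of the Pkd1 P3 KO group, also had one of the highest miR-10 shares, 79.8%, and replicate 1 of the Pkd1 P1 WT group stood apart in striated muscle miRNAs (1786 CPM summed over 7, against a median of 33.9).

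The 8 miRNAs together made up 0.0227% to 0.130% of the reads of a library. miR-9-5p and miR-218-5p supplied 97.8% of these reads over all libraries. miR-218-5p had a median of 421 CPM (range 248 to 665) and ranked 90 by mean level among all mature miRNAs, and miR-9-5p had a median of 232 CPM (126 to 408) and ranked 110. Both were therefore well above the counting limit in every library, with at least 1709 reads of miR-218-5p and 1491 of miR-9-5p. The next level was far lower, with medians of 6.43 CPM for miR-129-5p, 4.13 CPM for miR-9-3p and 2.34 CPM for miR-129-1-3p. miR-129-2-3p had a median of 0.797 CPM, miR-137-3p of 0.271 CPM and miR-124-3p of 0.221 CPM. miR-124-3p had 3 reads or fewer, which is not distinguished from absence here, in 16 of the 36 libraries, and miR-137-3p in 12. This limit covers counting error only, because amplified reads that lack molecular identifiers do not each stand for a molecule.

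**Figure D1:**
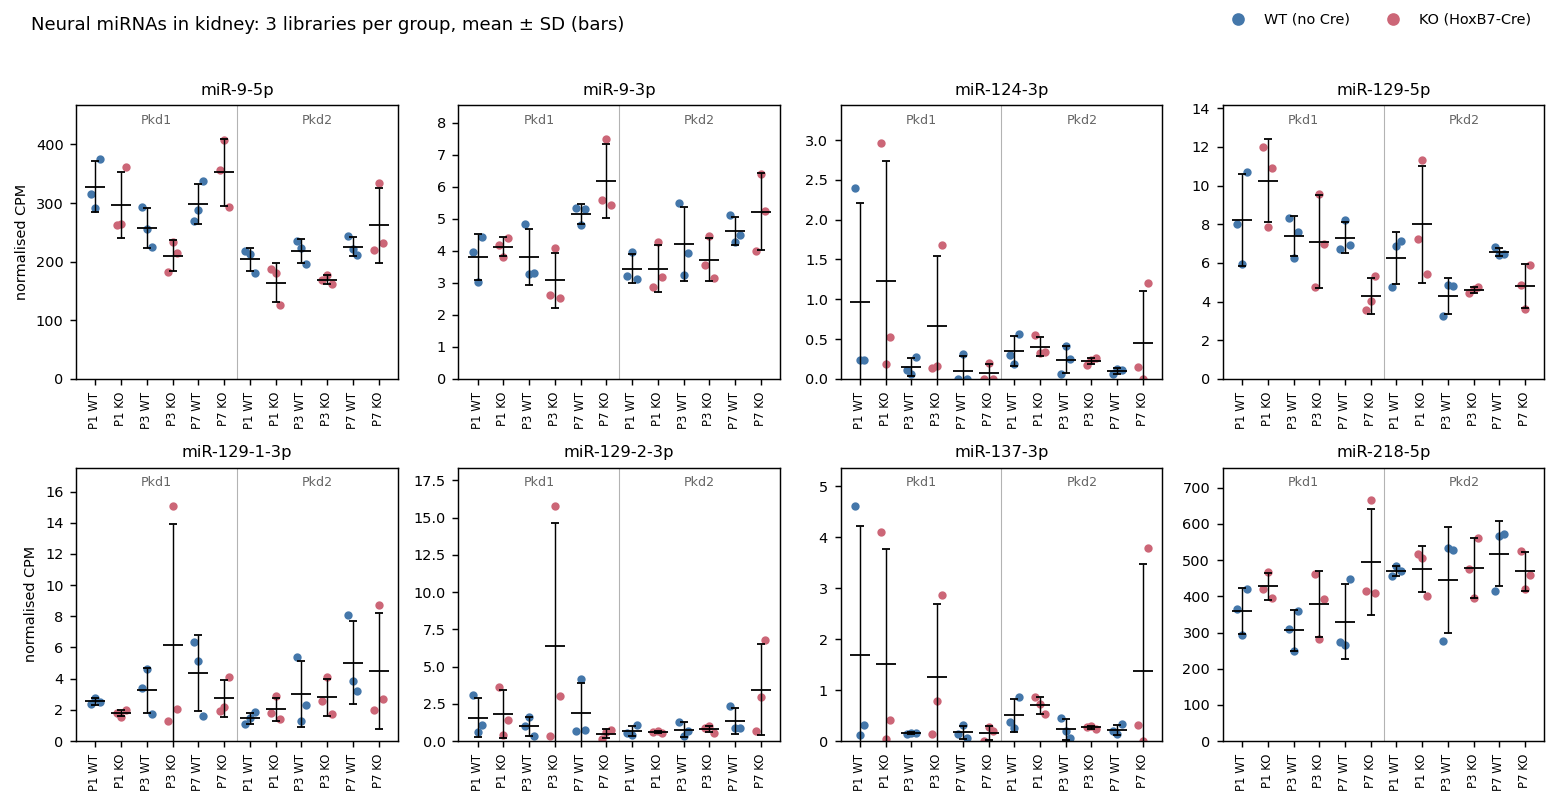
Normalised CPM of the 8 miRNAs (linear axes from 0, a different scale in each panel) in the 12 groups, blue for WT and red for KO; points are libraries, horizontal bars the group mean and vertical bars the SD of 3 libraries, cut at 0 where they would pass it. Libraries of a group differ by at most 1.52-fold for miR-9-5p, 1.7-fold for miR-9-3p and 1.92-fold for miR-218-5p, whereas the mean of miR-124-3p, miR-137-3p or miR-129-2-3p is set in several groups by 1 library.

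When the 12 groups were ordered by mean level, most neighbours were not separated. For miR-9-5p the order ran from 352 CPM in Pkd1 P7 KO to 164 CPM in Pkd2 P1 KO, and 10 of 11 neighbouring means lay closer than the larger of their SDs. The same count held for miR-9-3p (6.17 CPM in Pkd1 P7 KO to 3.07 CPM in Pkd1 P3 KO) and for miR-129-5p (10.2 CPM in Pkd1 P1 KO to 4.29 CPM in Pkd1 P7 KO). For the other 5 members 11 of 11 neighbours lay within the larger SD. These ran from 518 CPM in Pkd2 P7 WT to 306 CPM in Pkd1 P3 WT for miR-218-5p, and from 6.13 CPM in Pkd1 P3 KO to 1.46 CPM in Pkd2 P1 WT for miR-129-1-3p. The order of miR-129-2-3p went from 6.40 CPM in Pkd1 P3 KO to 0.492 CPM in Pkd1 P7 KO. For miR-137-3p it went from 1.68 CPM in Pkd1 P1 WT to 0.157 CPM in Pkd1 P3 WT, and for miR-124-3p from 1.23 CPM in Pkd1 P1 KO to 0.0682 CPM in Pkd1 P7 KO.

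Deletion of Pkd1 or Pkd2 was compared with WT at each age to ask whether any of these miRNAs changes as cysts form. With edgeR's quasi-likelihood test and Benjamini-Hochberg adjustment over all miRNAs tested, a miRNA was called at an adjusted p under 0.05. None of the 8 members was called in the Pkd1 model at P1, P3 or P7, where 0%, 0% and 0.425% of the 706 miRNAs tested were called. None was called in the Pkd2 model either, where 0%, 0% and 12.6% of the 746 tested were called. An unadjusted p under 0.05 was seen for 0, 2 and 2 members at P1, P3 and P7 in Pkd1 mice, beside 8.36%, 9.07% and 10.2% of all miRNAs tested. In Pkd2 mice it was seen for 0, 1 and 3 members, beside 5.5%, 1.47% and 29%. The study's thresholds, a 2-fold change and an unadjusted p under 0.05, were applied here to edgeR alone, whereas the study combined edgeR and DESeq2 lists. With these thresholds the counts were 0, 2 and 0 in Pkd1 mice, beside 4.25%, 6.09% and 3.97%, and 0, 0 and 3 in Pkd2 mice, beside 1.34%, 0.268% and 17.8%. By normalised CPM, 5 of 48 pairs of a member and a comparison had no overlap between KO and WT libraries, 4 lower in KO and 1 higher. Of all miRNAs tested, 18.1%, 12.3% and 16.4% had none at P1, P3 and P7 in Pkd1 mice. In Pkd2 mice these shares were 13.4%, 4.42% and 25.6%. DESeq2's Wald test called 1 member, miR-137-3p in the Pkd2 model at P7, and none in the other 5 comparisons.

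**Figure D2:**
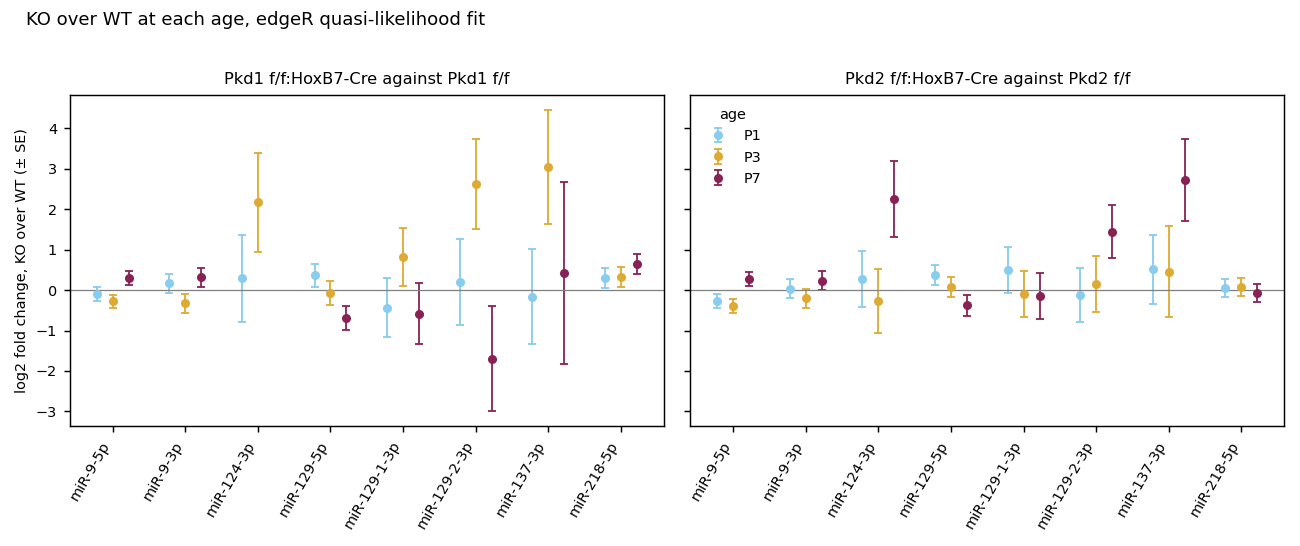
Log2 fold change of KO over WT with its standard error for the 8 miRNAs at P1 (light blue), P3 (ochre) and P7 (purple), Pkd1 model left and Pkd2 model right; miR-124-3p at P7 in the Pkd1 model is left out because no library there exceeded 3 reads. Bars are short for miR-9-5p, miR-9-3p and miR-218-5p, whose largest difference is 0.65, and long for miR-124-3p, miR-137-3p and miR-129-2-3p.

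Among the members, miR-9-5p had the smallest SE in each of the 6 comparisons of KO with WT. Its 95% intervals of the log2 difference between KO and WT lay between -0.77 and 0.66, so that none reached 2-fold. At P3 in the Pkd2 model miR-9-5p measured 168, 178 and 162 CPM in the KO libraries and 235, 223 and 196 CPM in the WT libraries. Each KO library was thus below each WT library, as for 2.14% of the miRNAs tested there. The log2 fold change of -0.39 (SE 0.18) had an unadjusted p of 0.044 and an adjusted p of 1 by edgeR's test.

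miR-9-3p, the other arm of the miR-9 hairpins, had intervals between -0.83 and 0.82 over the same comparisons. At P7 in the Pkd1 model its KO libraries, with 5.60, 7.50 and 5.42 CPM, were just above the WT libraries, with 5.35, 4.80 and 5.32 CPM. Such a separation upward was seen for 6.23% of the miRNAs tested, and the log2 difference of 0.32 (SE 0.24) had an adjusted p of 0.744 by edgeR. The 5p strand had 57.6 times the reads of the 3p strand at the median library (range 39.8 to 96.1). This ratio, which does not depend on how libraries are scaled, was 79.8 to 96.1 in Pkd1 WT kidneys at P1 and 50.4 to 63.3 at P7, and 53.8 to 67.7 and 46.9 to 52.1 in Pkd2 WT kidneys, without overlap in either. The ages overlapped in KO kidneys, with 62.9 to 82.3 at P1 and 54.0 to 63.5 at P7 in the Pkd1 model and 39.9 to 65.2 and 43.9 to 54.9 in the Pkd2 model. The ratio was not tested.

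miR-218-5p at P7 in the Pkd1 model measured 415, 665 and 408 CPM in KO kidneys against 274, 265 and 449 CPM in WT kidneys. The groups overlapped through 1 WT library, and the log2 fold change of 0.65 (SE 0.25) had an unadjusted p of 0.0204 and an adjusted p of 0.363. In the Pkd2 model at P7 the values were 526, 421 and 459 CPM in KO and 414, 568 and 572 CPM in WT, a log2 difference of -0.076 (SE 0.22) with an adjusted p of 0.87. The difference between the 2 models, tested in 1 fit of all 36 libraries, was -0.73 (SE 0.35, unadjusted p = 0.0432, adjusted p = 0.402 by edgeR). When the share of miR-10 reads entered as a covariate, the Pkd1 difference at P7 became 0.71 and was called, with an adjusted p of 0.0162 by edgeR, an alternative chosen after seeing the data. The miR-218 hairpins give 2 separate 3p strands. miR-218-1-3p, with a median of 3.34 CPM, differed by 0.77 (SE 0.24, unadjusted p = 0.00487, adjusted p = 0.159 by edgeR) at P7 in the Pkd1 model. The 5p strand had 112 times the reads of both 3p strands together at the median library (61.9 to 224).

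Among the strands of the miR-129 hairpins, the 5p strand at P7 measured lower in KO in both models by normalised CPM, but was not called. In the Pkd1 model miR-129-5p measured 3.54, 4.02 and 5.32 CPM in KO kidneys and 6.73, 8.21 and 6.93 CPM in WT kidneys. In the Pkd2 model it measured 4.87, 3.62 and 5.90 CPM in KO and 6.81, 6.43 and 6.44 CPM in WT. In each model all 3 KO libraries were below all 3 WT libraries, a separation downward that 10.2% of the miRNAs tested showed in Pkd1 mice and 12.1% in Pkd2 mice. The log2 fold changes were -0.68 (SE 0.30, unadjusted p = 0.0367, adjusted p = 0.418) and -0.38 (SE 0.25, unadjusted p = 0.149, adjusted p = 0.348) by edgeR's test, so neither was called. The same miRNA gave 0.37 (SE 0.29) and 0.38 (SE 0.24) at P1, where KO and WT libraries overlapped in both models. The change of the KO effect from P1 to P7 was -1.05 (SE 0.41, unadjusted p = 0.0227, adjusted p = 0.389) in Pkd1 mice and -0.76 (SE 0.35, unadjusted p = 0.0459, adjusted p = 0.285) in Pkd2 mice, and was not called. For this change 0 of the 8 members were called in either model, beside 0.142% of all miRNAs tested in Pkd1 mice and 0.536% in Pkd2 mice. An unadjusted p under 0.05 was seen for 1 and 2 members, beside 12% and 16.9% of all miRNAs, and the study's thresholds gave 1 and 0, beside 8.36% and 11.3%. DESeq2 called 0 in both.

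The KO and WT libraries of both 3p strands of miR-129 overlapped at P7. miR-129-1-3p, from Mir129-1, measured 1.92, 2.18 and 4.09 CPM in KO and 6.32, 5.11 and 1.61 CPM in WT kidneys at P7 in Pkd1 mice. In Pkd2 mice it measured 2.0, 8.74 and 2.72 CPM in KO and 8.07, 3.84 and 3.18 CPM in WT. The log2 fold changes were -0.58 (SE 0.74) and -0.14 (SE 0.57). miR-129-2-3p, from Mir129-2, measured 0.147, 0.614 and 0.716 CPM in KO and 0.687, 4.18 and 0.742 CPM in WT kidneys at P7 in Pkd1 mice. Its log2 difference of -1.69 (SE 1.29), with an adjusted p of 0.761 by edgeR, had the sign of the 5p strand and a wider error. In Pkd2 mice it was 1.45 (SE 0.65, adjusted p = 0.147), the opposite sign. For miR-129-1-3p at P1 in the Pkd1 model, KO libraries measured 1.82, 1.57 and 1.99 CPM and WT libraries 2.36, 2.79 and 2.50 CPM. All of these KO libraries were below all WT libraries, as for 10.5% of the miRNAs tested (log2 fold change -0.44, SE 0.73, edgeR adjusted p = 0.795). The reads of miR-129-5p over those of both 3p strands were between 2.76 and 3.18 in Pkd2 KO kidneys at P1 and between 0.310 and 1.81 at P7. In Pkd2 WT kidneys the ratio was 2.48 to 3.69 at P1 and 0.655 to 1.60 at P7. In Pkd1 KO kidneys it was 2.21 to 3.93 at P1 and 1.11 to 1.71 at P7. These 3 sets did not overlap between ages, whereas Pkd1 WT kidneys, with 1.48 to 3.02 at P1 and 0.883 to 2.95 at P7, did. In some groups the ratio was lower at a higher miR-10 share of reads. In Pkd1 KO kidneys at P3 it was 0.310, 1.37 and 2.99 at shares of 79.8%, 40.6% and 31.4%. In Pkd1 WT kidneys at P7 it was 0.883, 0.961 and 2.95 at 81.0%, 79.9% and 57.9%. Pkd2 KO kidneys at P1 went the other way, with 3.18 at 51.8% and 2.76 at 37.6%. The part of that share in the difference between ages was not tested. The ratio was not tested.

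**Figure D3:**
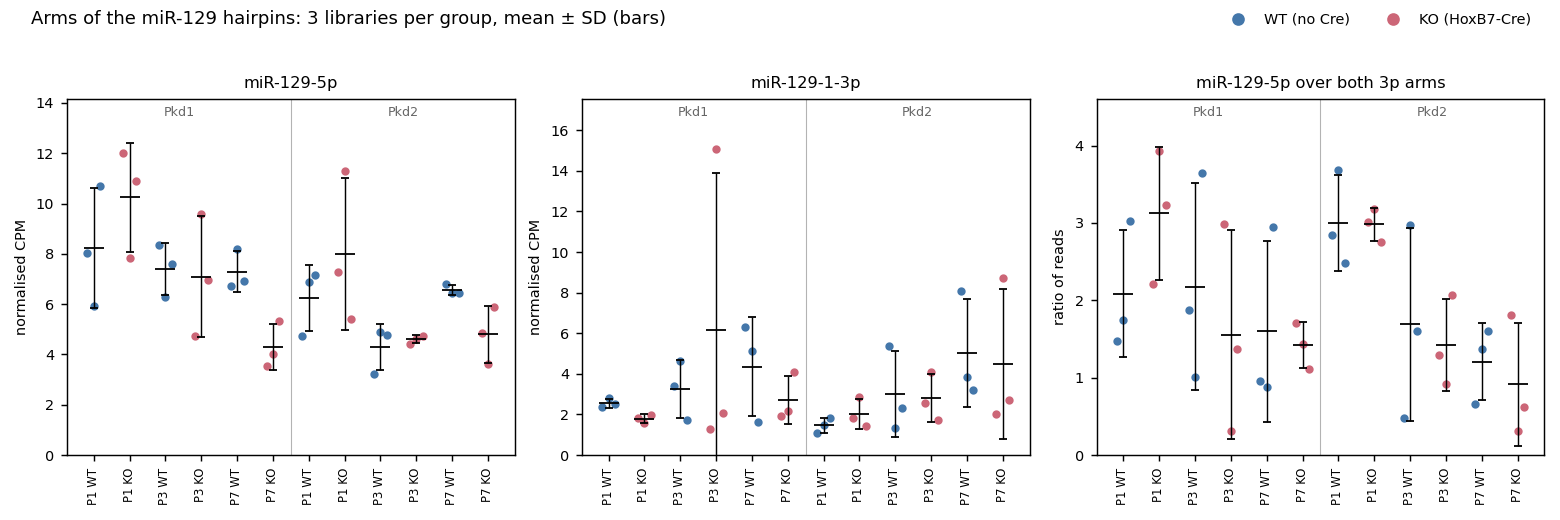
Normalised CPM of miR-129-5p (left) and miR-129-1-3p (middle) and the ratio of miR-129-5p reads to the reads of both 3p strands (right) in the 12 groups; points are libraries, bars the mean and SD of 3 libraries, cut at 0. At P7 all KO libraries lie below all WT libraries for miR-129-5p in both models by normalised CPM, but not in the Pkd2 model by library totals alone. The KO and WT ratios at P7 overlap.

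The rarest members were high in single libraries. miR-124-3p exceeded 1 CPM in 4 of the 36 libraries, and miR-137-3p in the same 4. They were replicate 1 of Pkd1 P1 WT, replicate 1 of Pkd1 P1 KO, replicate 3 of Pkd1 P3 KO and replicate 3 of Pkd2 P7 KO. miR-124-3p measured 2.40, 2.96, 1.68 and 1.20 CPM there in that order, and at most 0.559 CPM in any other library. miR-137-3p measured 4.60, 4.10, 2.86 and 3.78 CPM, and at most 0.872 CPM elsewhere. These values rest on 34 to 71 reads of miR-124-3p and 90 to 121 reads of miR-137-3p per library. Both genotypes, both models and all 3 ages are among the 4 libraries.

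Other strands were high in the same libraries. miR-138-5p, another miRNA enriched in neurons, held its 4 highest values there, 41.7, 50.9, 87.8 and 101 CPM against a median of 18.3 CPM. Other miRNAs known from brain were not raised throughout. miR-132-3p measured 56.2, 59.7, 40.4 and 52.9 CPM against a median of 53.2 CPM, and miR-128-3p 41.3, 21.6, 24.2 and 28.4 CPM against 26.5 CPM. The sum of 11 such miRNAs, miR-138-5p included, ranked 3, 6, 2 and 1 of 36. miR-129-2-3p, from Mir129-2, measured 3.08, 3.6, 3.03 and 6.75 CPM in the same 4 libraries, but its highest value was 15.8 CPM in replicate 2 of Pkd1 P3 KO, and it was 4.18 CPM in replicate 2 of Pkd1 P7 WT. In those 6 libraries miR-7a-5p, a miRNA of neuroendocrine cells, ranked 2, 11, 3, 5, 1 and 4 of 36, in the order of mention. miR-375-3p, which marks neuroendocrine and other secretory cells, measured 376, 283, 469, 107, 287 and 278 CPM in them against a median of 61.2 CPM. miR-7b-5p ranked 3, 6, 2, 5, 1 and 4. miR-7a-2-3p measured 1.41, 0.546, 0.898, 0.141, 0.941 and 0.155 CPM against a median of 0.067 CPM. miR-7a-1-3p was not raised throughout, with 7.15, 6.51, 4.44, 5.09, 4.39 and 7.28 CPM against a median of 6.15 CPM. In replicate 3 of Pkd1 P3 KO, miR-375-3p supplied 469 of the 502 CPM summed over the 5 neuroendocrine miRNAs. This sum ranged from 28.7 to 502 CPM over the 36 libraries and was among the 5 highest in 5 of these 6, but ranked 9 in replicate 3 of Pkd2 P7 KO. In that library the erythroid and leukocyte sums were the highest of all (5654 CPM over 4 miRNAs and 567 CPM over 5). The striated muscle sum was highest in replicate 1 of Pkd1 P1 WT and the liver sum ranked 5, 23, 7 and 22 in the 4 libraries. The part of other cell types in the levels of miR-124-3p, miR-137-3p and miR-129-2-3p was not tested.

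**Figure D4:**
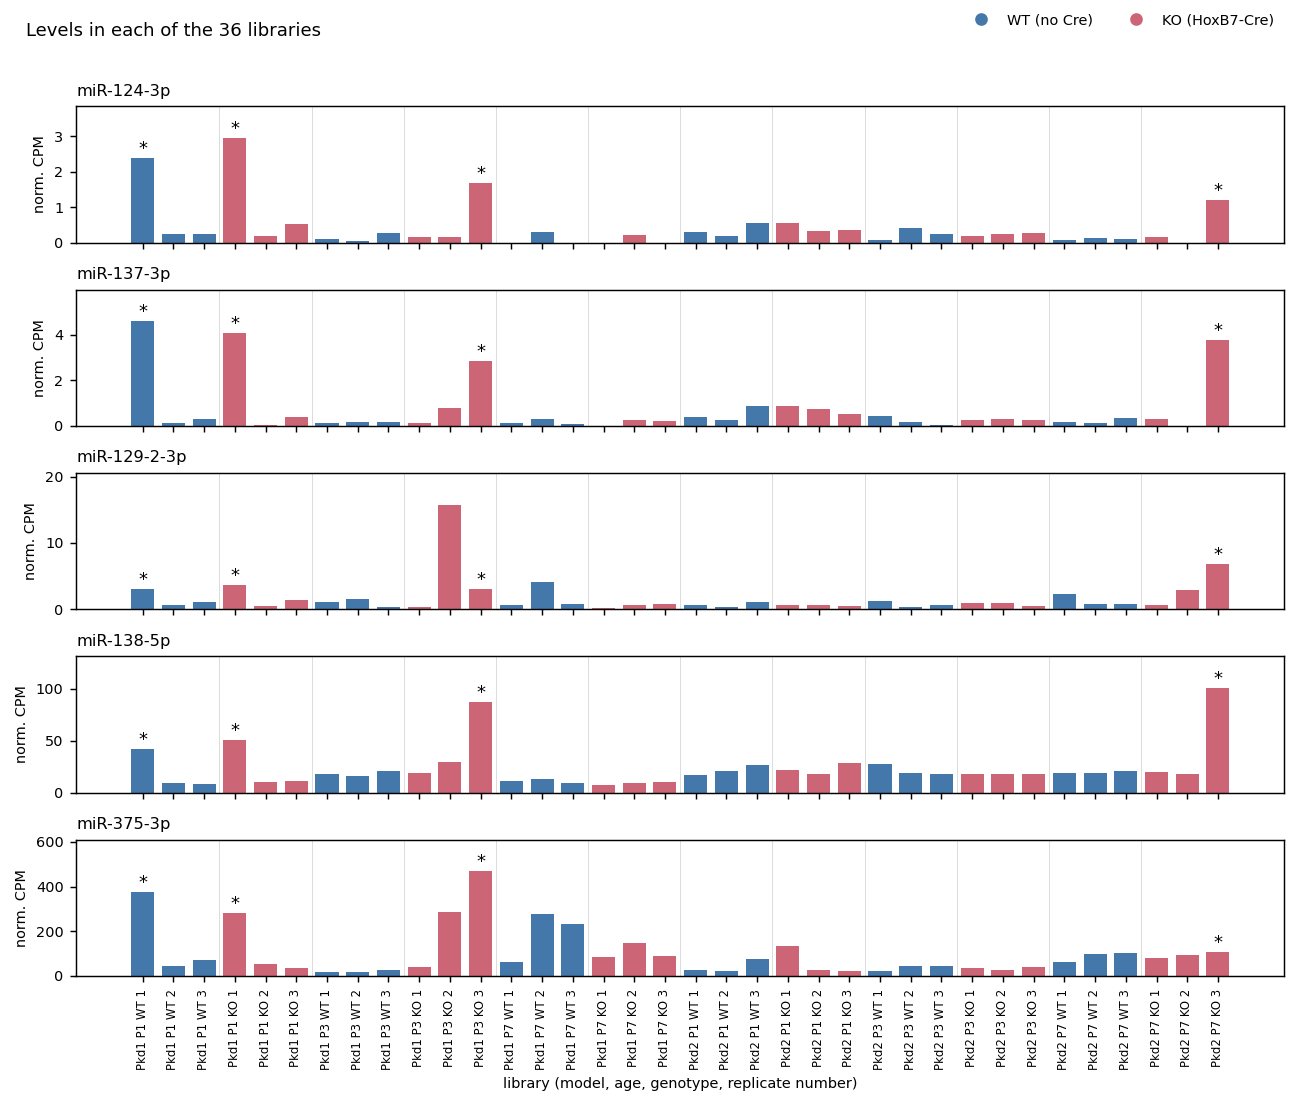
Normalised CPM (linear axes from 0) of miR-124-3p, miR-137-3p, miR-129-2-3p, miR-138-5p and miR-375-3p in each of the 36 libraries, blue for WT and red for KO; asterisks mark the 4 libraries over 1 CPM of miR-124-3p. The same 4 bars lead for miR-124-3p, miR-137-3p and miR-138-5p, while miR-129-2-3p peaks at 15.8 CPM in replicate 2 of Pkd1 P3 KO.

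The large fold changes of these members followed those libraries. At P7 in the Pkd2 model miR-137-3p measured 0.315, 0 and 3.78 CPM in KO and 0.189, 0.129 and 0.333 CPM in WT kidneys, and only 1 KO library was above the WT range. Its log2 fold change of 2.71 (SE 1.01, unadjusted p = 0.0163, adjusted p = 0.0832 by edgeR) became -0.049 without replicate 3 of the KO group. miR-124-3p, with 0.143, 0 and 1.20 CPM in KO and 0.0631, 0.129 and 0.111 CPM in WT, gave 2.24 (SE 0.94, adjusted p = 0.12) and -0.035 without that library. miR-129-2-3p, with 0.687, 2.94 and 6.75 CPM in KO and 2.33, 0.863 and 0.851 CPM in WT, gave 1.45 (SE 0.65, adjusted p = 0.147) and 0.41 without it. Without replicate 1 of the KO group miR-129-2-3p (adjusted p = 0.0284) and miR-137-3p (0.0389) were called by edgeR, and without its replicate 2 miR-124-3p (0.037) and miR-137-3p (0.0185).

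At P3 in the Pkd1 model the same pattern came from 2 KO libraries. miR-129-2-3p measured 0.332, 15.8 and 3.03 CPM in KO kidneys and 1.03, 1.61 and 0.347 CPM in WT kidneys, so that 1 KO library was below the whole WT range. The log2 fold change was 2.62 (SE 1.12, unadjusted p = 0.033, adjusted p = 0.488 by edgeR), and over the 6 fits that left out 1 library it ran from 0.84 to 3.22. miR-137-3p, with 0.142, 0.784 and 2.86 CPM in KO and 0.142, 0.167 and 0.162 CPM in WT, gave 3.04 (SE 1.40, unadjusted p = 0.0463, adjusted p = 0.519), and from 0.96 to 3.62 in such fits. At P7 in the Pkd1 model miR-124-3p had 0, 3 and 0 reads in KO and 0, 2 and 0 reads in WT, so no fold change is given. For the difference between the models in the KO effect, 0 of 8 members were called at P1, P3 or P7, beside 0%, 0% and 0.387% of the 775 miRNAs tested, and 0 were called by DESeq2. An unadjusted p under 0.05 was seen for 0, 0 and 2 members, beside 6.32%, 5.03% and 12%, and the study's thresholds gave 0, 0 and 1, beside 4.26%, 3.48% and 7.48%. The largest at P7 was miR-129-2-3p at 3.12 (SE 1.48, unadjusted p = 0.0444, adjusted p = 0.403 by edgeR).

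Levels were also compared between P7 and P1 to see which members change as the kidney matures. In Pkd1 WT kidneys 0 of 8 members were called by edgeR or DESeq2 and 1 had an unadjusted p under 0.05, while edgeR called 21.5% of all miRNAs tested and 36.3% had such a p. In Pkd1 KO kidneys 1 of 8 was called, beside 17.1%. In Pkd2 WT kidneys 1 of 8 was called, beside 28.3%, and in Pkd2 KO kidneys 3 of 8, beside 24.4%. The study's thresholds gave 0, 2, 1 and 1 members in Pkd1 WT, Pkd1 KO, Pkd2 WT and Pkd2 KO kidneys, beside 22.7%, 17.1%, 21.2% and 16.2%. These age comparisons share no library with each other, but each shares libraries with the comparisons of KO and WT given above.

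miR-129-5p fell with age in KO kidneys of both models. In Pkd1 KO kidneys it measured 12, 7.84 and 10.9 CPM at P1 and 3.54, 4.02 and 5.32 CPM at P7, without overlap as for 24.9% of the miRNAs tested, and fell by 1.15 on the log2 scale (SE 0.30, adjusted p = 0.0175 by edgeR). Without replicate 1 of the P1 group, replicate 1 of the P7 group or replicate 2 of the P7 group the value was -0.99, -1.06 and -1.04 and was no longer called. In Pkd2 KO kidneys it measured 7.26, 11.3 and 5.41 CPM at P1 and 4.87, 3.62 and 5.90 CPM at P7, with overlap, and fell by 0.77 (SE 0.25, adjusted p = 0.0351). That call was lost without replicate 2 of P1 (-0.49), replicate 1 of P7 (-0.78) or replicate 2 of P7 (-0.64). In Pkd1 WT kidneys the change was -0.10 (SE 0.29) and in Pkd2 WT kidneys it was -0.0075 (SE 0.25). The difference between KO and WT in this change was not called (edgeR adjusted p = 0.389 and 0.285 in Pkd1 and Pkd2 mice). By library totals alone, Pkd1 WT kidneys measured 7.74, 3.76 and 7.64 CPM at P1 and 2.72, 3.24 and 5.15 CPM at P7. In Pkd2 WT kidneys these were 6.73, 11.5 and 11.6 CPM and 4.72, 6.04 and 6.97 CPM. KO kidneys were also lower at P7 by these totals, as was the median of all miRNAs in each set. The small WT changes thus depended on the scaling.

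miR-9-5p in Pkd2 KO kidneys measured 187, 180 and 126 CPM at P1 and 220, 335 and 231 CPM at P7, without overlap as for 15% of the miRNAs tested. It was higher at P7 by 0.62 on the log2 scale (SE 0.18, adjusted p = 0.0201 by edgeR) but lower by the library totals alone, at -0.37, where the median of all miRNAs was -0.97. The call was lost without replicate 3 of P1 (0.50) or replicate 2 of P7 (0.37). In Pkd2 WT kidneys the change was 0.072 (SE 0.18), and the change of the KO effect from P1 to P7 was 0.55 (SE 0.25, unadjusted p = 0.0453, adjusted p = 0.284 by edgeR). miR-9-3p gave positive log2 changes with age in all 4 sets, 0.52, 0.67, 0.35 and 0.54 in Pkd1 WT, Pkd1 KO, Pkd2 WT and Pkd2 KO, none of them called by edgeR, and negative ones in all 4 sets by library totals alone (-0.15, -0.43, -0.39 and -0.46). DESeq2 called miR-9-3p higher at P7 in the KO kidneys of both models (adjusted p = 0.0388 and 0.0455).

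The 3p strands of miR-129 were called in the Pkd2 model, and whether their change with age differed between the models was not tested. miR-129-1-3p in Pkd2 WT kidneys measured 1.1, 1.46 and 1.83 CPM at P1 and 8.07, 3.84 and 3.18 CPM at P7, without overlap as for 24.3% of the miRNAs tested, and rose by 1.70 on the log2 scale (SE 0.58, adjusted p = 0.038 by edgeR). It was 0.85 and not called by library totals alone, and the call was lost without replicate 1, 2 or 3 of P1 (1.53, 1.70 and 1.89) or replicate 1 of P7 (1.19). With the replicate number as a block it was 1.62 with an adjusted p of 0.0536. The Pkd1 WT change was 0.86 (SE 0.74) and was not called. miR-129-2-3p in Pkd2 KO kidneys measured 0.597, 0.687 and 0.525 CPM at P1 and 0.687, 2.94 and 6.75 CPM at P7, and rose by 2.46 (SE 0.66, adjusted p = 0.0142). It was 1.49 by library totals alone, and without replicate 3 of P7 it was 1.42, neither of them called, and the call was also lost without replicate 3 of P1 (2.41). In Pkd1 KO kidneys miR-129-2-3p gave -1.72 (SE 1.24), in Pkd1 WT 0.17 (SE 1.14) and in Pkd2 WT 0.88 (SE 0.67), none of them called. miR-218-5p differed by between -0.075 and 0.29 with age in the 4 sets, none of them called.

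miR-124-3p and miR-137-3p had few reads at P7 in the Pkd1 model. miR-124-3p had 63, 2 and 3 reads in WT and 65, 4 and 13 reads in KO kidneys at P1, against at most 3 reads in any of the 6 libraries at P7. miR-137-3p had 121, 1 and 4 reads in WT and 90, 1 and 10 in KO kidneys at P1, against at most 4 reads at P7. One library of each P1 group held most of these reads, and none of the changes with age of either miRNA was called. In the Pkd2 model at P1 the 6 libraries were more even. They had 8 to 25 reads of miR-124-3p and 11 to 39 reads of miR-137-3p. Such reads are not on one scale. A count of 3 reads was 0.186 to 0.465 CPM in Pkd1 libraries at P7 and 0.0606 to 0.109 CPM in Pkd2 libraries at P1. The 8 to 25 reads of miR-124-3p were thus 0.191 to 0.559 CPM, while 2 reads in replicate 2 of Pkd1 P7 WT were 0.31 CPM.

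WT kidneys of the 2 models differed in 3 members over the 3 ages, beside 25.2% of the 775 miRNAs tested, and none did so by the study's thresholds, which 10.6% of miRNAs met. miR-9-5p was lower in the Pkd2 model by -0.44 on the log2 scale (SE 0.10, adjusted p = 0.00196 by edgeR), with medians over all 18 libraries of 212 CPM in the Pkd2 model and 290 CPM in the Pkd1 model. miR-129-5p was lower by the same -0.44 (SE 0.16, adjusted p = 0.0406), with values from -0.50 to -0.37 when 1 WT library was left out. That call was lost in 8 of 18 such fits, those without Pkd1 P1 replicate 3 (-0.37), Pkd1 P3 replicate 1 (-0.43) or 3 (-0.44), Pkd1 P7 replicate 2 (-0.41), Pkd2 P1 replicate 1 (-0.39), Pkd2 P3 replicate 1 (-0.39), and Pkd2 P7 replicate 2 or 3 (-0.44 each). By library totals alone, where the median of all miRNAs was 0.62, miR-9-5p and miR-129-5p were both positive and not called (0.19 and 0.23). miR-218-5p was higher in the Pkd2 model by 0.53 (SE 0.14, adjusted p = 0.00689) and by 1.17 under library totals alone, but by 0.22 and not called once the share of miR-10 reads was a covariate. The models are separate lines of mice, and line, handling and sequencing cannot be told apart.

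The level of several members moved with the miR-10 share. Over the 36 libraries Spearman's rho with that share was 0.70 for miR-9-5p (Pearson's r 0.68), 0.65 for miR-9-3p (r 0.65), 0.67 for miR-129-1-3p (r 0.66) and -0.56 for miR-218-5p (r -0.58), and it was 0.074 for miR-129-5p (r 0.057). Within the models it was 0.35 and 0.42 for miR-9-5p in the Pkd1 and Pkd2 libraries, 0.76 and 0.72 for miR-129-1-3p, and -0.44 and -0.62 for miR-218-5p. These are descriptions without a test, since libraries of a model share line and handling, and since a share and a scaled level are drawn from the same reads. The highest value of miR-129-1-3p, 15.1 CPM, was in replicate 2 of Pkd1 P3 KO, with a miR-10 share of 79.8%.

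**Figure D5:**
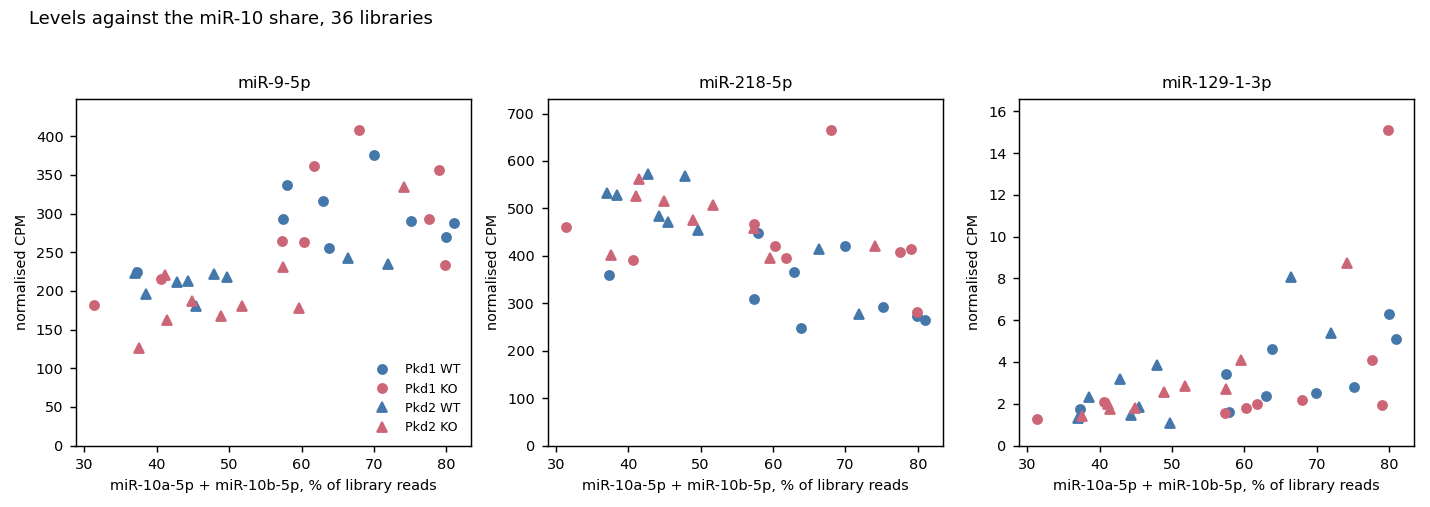
Normalised CPM of miR-9-5p, miR-218-5p and miR-129-1-3p (linear axes from 0) against the percentage of library reads from miR-10a-5p and miR-10b-5p in the 36 libraries; circles are the Pkd1 model, triangles the Pkd2 model, blue WT and red KO. miR-9-5p and miR-129-1-3p are higher and miR-218-5p lower toward high shares, and Pkd2 libraries sit mainly at the lower shares.

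The 8 members did not vary as one group across libraries. miR-124-3p and miR-137-3p were the most alike pair over the 36 libraries, with rho 0.69 (r 0.84), and r was 0.76 without the 2 libraries farthest from the median of miR-124-3p. Within the models their rho was 0.71 in the Pkd1 and 0.62 in the Pkd2 libraries, where other pairs were more alike. In the Pkd1 libraries miR-129-2-3p and miR-137-3p had rho 0.78, and in the Pkd2 libraries miR-129-1-3p and miR-129-2-3p had 0.83. For miR-124-3p and miR-137-3p in the Pkd2 libraries, r fell from 0.77 to 0.45 without the 2 farthest libraries. Over the 36 libraries the 3p strands miR-129-1-3p and miR-129-2-3p followed with rho 0.65, and miR-9-5p and miR-9-3p had rho 0.60. miR-129-5p was nearly unrelated to miR-129-1-3p (rho 0.012), although both can come from Mir129-1. miR-124-3p and miR-137-3p had 3 reads or fewer in 16 and 12 of the libraries, where their order carries little information.

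Among all 775 miRNAs, those most like each member by Spearman's rho over the 36 libraries differed between members. For miR-9-5p they were miR-103-3p (0.82), miR-30c-2-3p (0.80) and miR-10b-5p (0.76), and for miR-9-3p miR-221-3p (0.85), miR-23b-3p (0.81) and miR-185-5p (0.80). For miR-218-5p they were miR-200a-5p (0.78), miR-700-3p (0.77) and miR-126a-5p (0.76). For miR-129-1-3p they were miR-671-5p (0.84), miR-30d-5p (0.81) and miR-186-5p (0.81), and for miR-129-2-3p miR-129-1-3p (0.65), miR-7a-5p (0.63) and miR-329-5p (0.61). miR-129-5p had no close match, with miR-674-3p (0.60), miR-34b-3p (0.59) and miR-377-5p (0.58).

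For the rare members the nearest strands came mostly from one stretch of chromosome 12. miR-137-3p was most like miR-376a-3p (0.74), miR-323-3p (0.73) and miR-369-3p (0.71), and miR-124-3p most like miR-323-3p (0.79), miR-6540-3p (0.79) and miR-433-3p (0.76). The hairpins of miR-433-3p (chr12:109591715-109591838), miR-323-3p (chr12:109712508-109712593), miR-376a-3p (chr12:109723781-109723848) and miR-369-3p (chr12:109743418-109743496) are on the plus strand of GRCm38. That of miR-6540-3p is at chr16:42303362-42303469. These likenesses are descriptions over libraries that share line, age and handling.

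Of 11 other miRNAs known from neurons, glia or brain, 10 had enough reads to be tested. Their summed level ranged from 127 to 262 CPM, highest in replicate 3 of Pkd2 P7 KO. In the comparisons of KO with WT none was called in the Pkd1 model at any age or in the Pkd2 model at P1 and P3, and 1 of 10 was called, lower, in the Pkd2 model at P7, where 12.6% of all miRNAs tested were called. The median log2 fold change of the list in that comparison was 0.099, beside 0.023 over all miRNAs tested. The one called was miR-488-3p, which is known from brain. It measured 14.7 to 16.8 CPM in KO and 24.3 to 27.8 CPM in WT kidneys, a log2 difference of -0.62 (SE 0.13) with an adjusted p of 0.0143 by edgeR. The call was lost without replicate 3 of KO (-0.58, adjusted p = 0.0621), without replicate 2 of WT (-0.63, adjusted p = 0.0534) and by library totals alone (-0.61, adjusted p = 0.487). At P7 in the Pkd1 model it measured 17.4 to 18.6 CPM in KO and 25.1 to 30.0 CPM in WT, again without overlap, as for 10.2% of the miRNAs tested there in this direction and 12.1% in the Pkd2 model, and differed by -0.55 (SE 0.28, unadjusted p = 0.0662, adjusted p = 0.546 by edgeR). miR-383-5p, another brain miRNA, measured 2.65, 2.59 and 3.07 CPM in KO and 6.73, 4.96 and 9.96 CPM in WT kidneys there, and was -1.31 (SE 0.34, adjusted p = 0.0995).

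From P1 to P7, 1 of these 10 miRNAs was called in Pkd1 WT, 1 in Pkd1 KO, 2 in Pkd2 WT and 2 in Pkd2 KO kidneys, beside 21.5%, 17.1%, 28.3% and 24.4% of all miRNAs tested. In WT level between the models 1 was called, beside 25.2%. None of these shares was above that of all miRNAs. miR-338-3p, a miRNA of oligodendrocytes, rose by 1.19 (SE 0.35, adjusted p = 0.0282) in Pkd1 WT and by 1.21 (SE 0.33, adjusted p = 0.0148) in Pkd2 KO kidneys from P1 to P7 by edgeR's test. The first call was lost without replicate 2 or 3 of P1 (1.08 and 1.00) or replicate 1 or 2 of P7 (0.92 and 1.16), the other without replicate 2 or 3 of P1 (1.14 and 1.16) or replicate 3 of P7 (0.77), and both by library totals alone (0.31 and 0.28). miR-212-3p, encoded beside miR-132, fell by 0.83 (SE 0.22, adjusted p = 0.00889) in Pkd2 WT and by 0.78 (SE 0.22, adjusted p = 0.0161) in Pkd2 KO kidneys, the latter call being lost without replicate 3 of P1 (-0.74). miR-383-5p fell by 1.21 (SE 0.34, adjusted p = 0.0258) in Pkd1 KO kidneys, and the call was lost without replicate 1 or 2 of P1 (-1.01 and -1.21) or replicate 1 or 2 of P7 (-1.20 and -1.10). miR-488-3p was higher at P7 in Pkd2 WT kidneys by 0.59 (SE 0.13, adjusted p = 0.00365) but lower by library totals alone, at -0.13. miR-128-3p was higher in WT kidneys of the Pkd2 than of the Pkd1 model by 0.37 (SE 0.14, adjusted p = 0.0444 by edgeR). That call was lost in 14 of the 18 fits that left out 1 WT library (values from 0.29 to 0.55, adjusted p up to 0.102), with DESeq2 (0.32, adjusted p = 0.0605) and with DESeq2's size factors in edgeR (0.33, adjusted p = 0.0735).

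The remaining strands of the members' hairpins were rare. miR-218-2-3p, from the hairpin in Slit3, fell by 1.75 on the log2 scale (SE 0.48, adjusted p = 0.0158 by edgeR) from P1 to P7 in Pkd2 KO kidneys. That call was lost without replicate 1 of P1 (-1.49) or replicate 1 of P7 (-1.48). miR-124-5p, miR-137-5p, miR-129b-5p and miR-129b-3p had too few reads to be tested, with at most 0.266 CPM in any library.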

How the data were processed

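MiRNA-seq libraries were made from total RNA of whole kidneys. The authors trimmed the 3′ adaptor, dropped short reads and counted reads per mature miRNA and precursor with miRDeep2 (version not given in the sources used here) against miRBase and mm10. The labels also name CASAVA 1.8.2 and HTSeq. The deposited values are raw read counts. Where a mature miRNA had several rows, the fullest row was taken, since its reads are counted at each precursor.

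Groups came from the labels. The 18 libraries of a model were fitted together with edgeR 4.0.16 in R 4.3.3, keeping a miRNA if 3 or more libraries had 10 counts or more, TMM factors, a quasi-likelihood F-test and Benjamini-Hochberg adjustment over all miRNAs tested. All 8 members passed the filter. Contrasts between models used all 36 libraries. SE was the absolute log2 fold change over the square root of F, and CPM used TMM factors of all 36 libraries. A count of 3 reads was 0.0593 to 0.471 CPM. DESeq2 1.42.0, other scalings, filters and designs and leaving out libraries were tried as alternatives. Scripts were tested on simulated data.

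The named miRNAs were the 8 members, the other strands of their hairpins, list members that were called or stand beside a result, and the 3 miRNAs most like each member. miR-383-5p at P7 in the Pkd1 model was named after its values were seen. The members, lists and the 2 added alternatives (miR-10 share as a covariate, and 4 libraries left out together) were chosen with earlier results of these data known. Sequences and hairpins are from RefSeq (GRCm38.p6), and the genes at the hairpins from GENCODE.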

Additional observations from a re-analysis of the deposited data

How the results depend on the processing

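Of 154 alternatives to the number of members called, other than leaving out single libraries, 133 gave a count within 1.5 times the one reported and 21 did not, and the cause was not tested. The study's thresholds (2-fold, unadjusted p under 0.05), applied to edgeR alone, gave 2 members for KO against WT at P3 in the Pkd1 model and 3 at P7 in the Pkd2 model. They gave 2 and 1 for P7 against P1 in Pkd1 KO and Pkd2 KO kidneys, 1 for the Pkd1 KO effect at P7 minus P1, 1 for the model difference in KO effect at P7 and 0 for the model difference in WT level. Library totals alone gave 3, 0 and 1 members for P7 against P1 in Pkd1 KO, Pkd2 WT and Pkd2 KO kidneys. The filter left out gave 1 for KO against WT at P7 in the Pkd2 model and 1 for P7 against P1 in Pkd2 KO kidneys, and fitting the compared libraries alone gave 2 and 1 for P7 against P1 in Pkd1 KO and Pkd2 KO kidneys. DESeq2 gave 1 for KO against WT at P7 in the Pkd2 model and 2 for P7 against P1 in Pkd1 KO kidneys, where summing precursor rows gave 2, the miR-10 covariate 2 and leaving out the 4 libraries over 1 CPM of miR-124-3p 0. The miR-10 covariate gave 1 for KO against WT at P7 in the Pkd1 model. Leaving out single libraries gave 0 to 2 members for KO against WT at P7 in the Pkd2 model, 0 to 1 for P7 against P1 in Pkd1 KO and in Pkd2 WT kidneys, 1 to 3 in Pkd2 KO kidneys and 2 to 3 for the WT level. In the other 11 comparisons it changed no count.

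Values that changed sign included, by library totals alone, miR-9-3p for P7 against P1 in Pkd1 WT (-0.15), Pkd1 KO (-0.43), Pkd2 WT (-0.39) and Pkd2 KO kidneys (-0.46), miR-488-3p in Pkd2 WT (-0.13), miR-129-2-3p in Pkd1 WT (-0.78), miR-9-5p in Pkd2 KO kidneys (-0.37), and the WT level difference of miR-9-5p (0.19) and miR-129-5p (0.23). Without replicate 3 of Pkd2 P7 KO, alone or with the other 3 libraries over 1 CPM, miR-124-3p was -0.035 and miR-137-3p -0.049 for KO against WT, while the fits that left out 1 library reached 2.75 and 3.22. Under library totals the median of all miRNAs for P7 against P1 was -0.68, -1.16, -0.78 and -0.97 in Pkd1 WT, Pkd1 KO, Pkd2 WT and Pkd2 KO kidneys, and the miRNAs called higher and lower in Pkd2 KO kidneys went from 88 and 94 to 3 and 263. Those for the WT level went from 119 and 76 to 305 and 8, and for KO against WT at P7 in the Pkd2 model from 67 and 27 to 7 and 0.

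Replicate numbers were not used as pairs in the main fits. The paper's controls were age-matched littermates, and 3 libraries per group cannot decide whether the numbers follow litters. Deviations from the group means correlated by over 0.1 in 7 of 18 same-numbered pairs (range -0.489 to 0.456), and 5 of 18 libraries correlated best with their own number. With the replicate block, the count for P7 against P1 in Pkd2 WT kidneys was 0 and in Pkd2 KO kidneys 2. Depth limits miR-124-3p and miR-137-3p most, with 3 reads or fewer in 16 and 12 libraries.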
